A study of Mus musculus with 12 samples.

Results

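The cell cycle genes described here are 40 genes of DNA replication and mitosis, taken as a list of symbols. The list was chosen with earlier results of these data known. Of the 40 genes, 39 were measured among the 18193 genes of the array. Ccnb1 had no probe set with its symbol in the array annotation and was not analysed here. The 39 genes were covered by 92 probe sets, and each gene was given 1 value per array, the mean log2 ratio of its probe sets. They were split into 15 genes of DNA replication and the entry into S phase (Mcm2 to Mcm7, Pcna, Tyms, Rrm1, Rrm2, Tk1, Ccne1, Ccne2, E2f1 and Uhrf1) and 24 measured mitotic genes. RNA came from kidneys of WT (wild-type) mice and of AGTR1A-KO mice, which are deficient for the AT1A receptor of angiotensin II (KO), at baseline or with angiotensin II (ANG II) infused at 1 ug/kg/min over 2 days. All animals were males of 2.5 months from the cross F1 (C57BL6 X 129/SvEv). All received a diet labelled NS, an abbreviation that the labels do not spell out. The 4 groups were WT baseline, WT ANG II, KO baseline and KO ANG II, with 3 mice and 1 array per mouse in each. The sources used here do not say whether the deletion is present in every tissue.

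Angiotensin II is a peptide hormone that constricts vessels and retains sodium, and the AT1A receptor, the product of Agtr1a, mediates most of its effects in mice. In a dividing cell, E2F factors and cyclin E open S phase, the MCM helicase unwinds DNA, PCNA holds the polymerase on it and nucleotide enzymes supply the precursors. Cyclin A, cyclin B, CDK1 and the Aurora and Polo kinases then drive mitosis, in which kinesins and centromere proteins move the chromosomes. Adult kidney tubules divide rarely, and dividing tubule cells are known from repair after injury. A fall of such a transcript in bulk tissue cannot tell fewer dividing cells from less of that RNA in each cell.

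Promoters of these genes are known for a few short elements. E2F sites are typical of replication genes, whereas the cell cycle genes homology region (CHR) and the CCAAT box are typical of mitotic genes. RefSeq windows on GRCm38.p6, from 250 bases before to 50 bases after the start, were at hand for 32 of the 39 genes. The 4 windows printed here are those of the 3 genes whose genotype difference under ANG II held in every alternative with 1 value per gene (Mcm6, Mki67, Cenpe) and of Cdk1, which held all 3 elements and was called in no comparison. They lie at chr1:128359656-128359955 on the minus strand for Mcm6, at chr7:135716330-135716629 on the minus strand for Mki67, at chr3:135212313-135212612 on the plus strand for Cenpe and at chr10:69352863-69353162 on the minus strand for Cdk1. Capitals mark matches to an E2F element (TTTGGCGC or TTTCGCGC), a CHR (TTTGAA or TTCGAA) or a CCAAT box (CCAAT), each searched on both strands.
Mcm6: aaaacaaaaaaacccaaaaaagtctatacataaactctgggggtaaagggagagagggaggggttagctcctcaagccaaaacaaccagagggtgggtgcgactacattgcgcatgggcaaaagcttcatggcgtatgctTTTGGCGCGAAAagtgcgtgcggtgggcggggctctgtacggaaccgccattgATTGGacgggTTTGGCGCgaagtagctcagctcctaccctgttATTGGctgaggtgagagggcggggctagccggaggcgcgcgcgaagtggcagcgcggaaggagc
Mki67: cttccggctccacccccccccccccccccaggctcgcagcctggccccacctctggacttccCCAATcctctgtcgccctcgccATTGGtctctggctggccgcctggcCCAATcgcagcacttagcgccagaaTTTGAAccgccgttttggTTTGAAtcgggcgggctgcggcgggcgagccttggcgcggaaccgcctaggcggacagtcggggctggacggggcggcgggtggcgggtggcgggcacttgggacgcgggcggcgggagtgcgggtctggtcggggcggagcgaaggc
Cenpe: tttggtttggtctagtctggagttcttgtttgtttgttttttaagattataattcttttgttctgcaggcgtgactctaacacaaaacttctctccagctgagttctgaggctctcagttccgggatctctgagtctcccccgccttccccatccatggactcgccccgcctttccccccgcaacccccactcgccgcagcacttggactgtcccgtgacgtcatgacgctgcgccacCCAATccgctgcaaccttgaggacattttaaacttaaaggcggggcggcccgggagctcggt
Cdk1: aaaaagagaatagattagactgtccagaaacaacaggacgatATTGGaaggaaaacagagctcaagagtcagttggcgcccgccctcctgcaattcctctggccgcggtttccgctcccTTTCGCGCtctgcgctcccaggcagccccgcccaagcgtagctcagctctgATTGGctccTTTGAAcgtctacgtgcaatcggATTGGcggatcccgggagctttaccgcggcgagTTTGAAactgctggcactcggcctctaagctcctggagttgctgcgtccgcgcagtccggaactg

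In the Mcm6 window 3 E2F matches were found, of which 2 overlap, with 2 CCAAT boxes and no CHR. Mki67 held 2 CHR matches and 3 CCAAT boxes, and Cenpe held 1 CCAAT box with neither of the other elements. In Cdk1, 1 E2F match stood with 2 CHR matches and 3 CCAAT boxes. In the shares that follow, a gene counted when any of its windows held a match. A CHR was found in 16 of 19 mitotic genes with a window (84.2%) and in 2 of 13 replication genes (15.4%). Of all 27025 genes with a window 21.7% held one. The mitotic genes with a window but no CHR were Birc5, Nusap1 and Cenpe. CCAAT boxes were in 17 of 19 mitotic genes (89.5%) and in 9 of 13 replication genes (69.2%), against 41.1% of all genes. E2F matches were in 5 of 13 replication genes (38.5%), namely Mcm3, Mcm5, Mcm6, Mcm7 and Uhrf1. They were in 1 of 19 mitotic genes (5.26%) and in 0.929% of all genes. Matches of 2 different elements overlapped in 2 of 35 windows, since some genes have more than 1. A match shows the presence of these letters and not of a bound factor.

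The deposited values were ratios of each array to the median of the same probe set over all 12 arrays, so groups could be compared for a gene, but levels could not be compared between genes and the absence of a marker could not be read. A gene was called at a limma adjusted p under 0.05, with Benjamini-Hochberg adjustment over all 18193 genes. Errors are moderated standard errors of 1 fit to all 12 arrays with 3 per group. The targeted gene, Agtr1a, had ratios of 1.36 to 1.40 in WT baseline kidneys and of 0.917 to 1.05 in the other 3 groups, so it separated the genotypes at baseline (log2 difference -0.49, limma adjusted p = 0.00148) and not under ANG II (-0.00, limma adjusted p = 0.975). The sources used here do not say whether its only probe set detects the deleted stretch. Log2 ratios were spread more widely in the WT ANG II arrays, with an SD over probe sets of 0.268 to 0.342, than in the other 9 arrays, with 0.164 to 0.262. Markers of other cells also differed between the groups. The mean log2 ratio over 12 macrophage markers was -0.36 to -0.00 in WT baseline, -0.71 to -0.38 in WT ANG II, 0.73 to 1.28 in KO baseline and -0.12 to 0.33 in KO ANG II arrays. Of these 12 markers 9 were called higher in KO than in WT at baseline and 9 under ANG II. In the WT response 6 were called lower, and in the KO response 8. Over all genes 5.13% were called higher in KO at baseline and 15.2% under ANG II. Those called lower made up 15.6% in the WT and 7% in the KO response. Injury markers of the tubule (9 measured) lay at 0.40 to 0.75 in KO baseline and -0.14 to 0.02 in KO ANG II arrays. In WT they lay at -0.31 to -0.18 in baseline and, without overlap, at -0.10 to 0.03 in ANG II arrays. The 9 fibroblast and pericyte markers lay at 0.31 to 1.07 in KO baseline, -0.16 to 0.37 in KO ANG II, -0.81 to -0.25 in WT ANG II and -0.38 to 0.14 in WT baseline arrays. The 8 erythroid and neutrophil markers lay at 0.17 to 0.58 in WT ANG II, 0.10 to 0.51 in KO ANG II, -0.18 to -0.05 in WT baseline and -0.32 to -0.19 in KO baseline arrays. The 10 distal nephron and collecting duct markers lay at 0.08 to 0.12 in WT baseline and -0.14 to -0.09 in WT ANG II arrays. In KO they lay at -0.08 to 0.08 in baseline and -0.01 to 0.03 in ANG II arrays. The 10 proximal tubule markers were lowest in KO baseline arrays, at -0.12 to -0.09, and lay at -0.03 to 0.08 in KO ANG II arrays. In WT these markers lay at -0.02 to 0.15 in baseline and -0.07 to 0.07 in ANG II arrays. The 9 T and B cell markers lay between -0.13 and 0.11 in all arrays, and their groups overlapped. The part that these markers and the spread of the arrays have in the results below was not tested.

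Of the 39 cell cycle genes, 28 (71.8%) were called in none of the 5 comparisons, against 56.1% of all genes. In WT kidneys the infusion was accompanied by falls of Mcm4, Mcm6, Mki67 and Cenpe and a rise of Ccne1, in KO kidneys by a rise of Tk1 and a fall of Mcm4. Under the infusion 9 of the 39 genes (23.1%) were called higher in KO than in WT, and none was called lower. Over all genes 15.2% were called higher and 10.4% lower. The spread between replicate arrays of these genes resembled that of other genes, with a median residual SD of 0.11 on the log2 scale over the 39 genes and 0.11 over all genes. The range from the lowest to the highest of the 12 arrays had a median of 0.51 over the 39 genes and 0.52 over all genes, and reached 1.28 for Birc5.

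**Figure D1:**
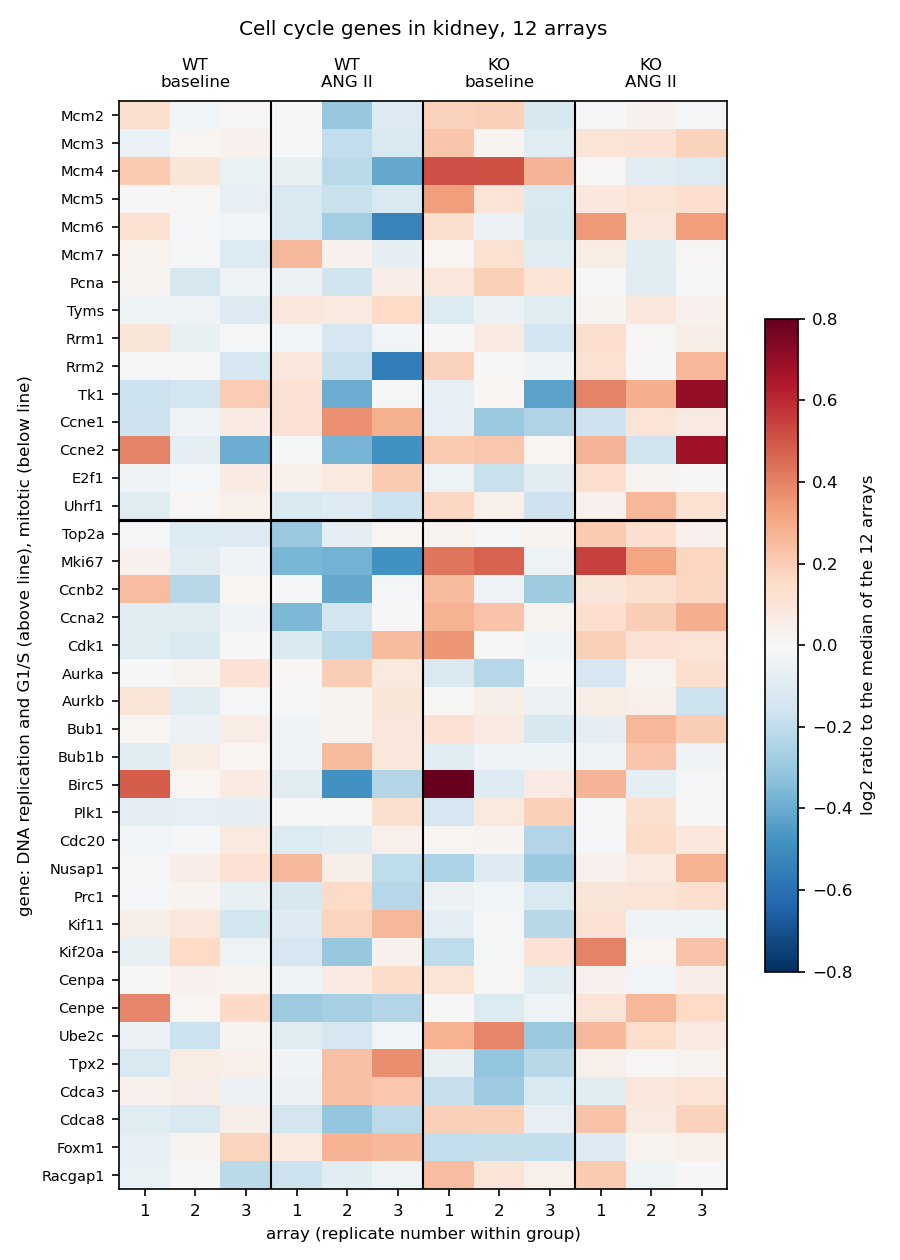
Log2 ratio of each of the 39 cell cycle genes to its median over the arrays (colour, red higher and blue lower) in the 12 arrays, ordered by group and replicate number, with the 15 replication genes above the horizontal line and the 24 mitotic genes below it. Mki67 is blue in the 3 WT ANG II arrays (ratios of 0.714 to 0.777) and red in the 3 KO ANG II arrays (1.13 to 1.46), and most genes stay pale.

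Counts of called genes were read against the whole array. In the WT response, which is ANG II minus baseline, 5 of 39 genes were called (12.8%), against 26.5% of all genes. Upward 1 gene was called, where 10.9% of all genes were, and downward 4, where 15.6% were. In the KO response 2 of 39 were called (5.13%), 1 in each direction, against 12.8% of all genes, 5.82% upward and 7% downward. For the difference of the responses 2 of 39 were called, both with a higher response in KO, against 13% of all genes, 8.86% in that direction and 4.12% in the other. For KO minus WT at baseline 0 of 39 were called by limma, against 8.07% of all genes (5.13% higher and 2.94% lower in KO). An unadjusted limma p under 0.05 was found for 9 of the 39, and for 4621 of all 18193 genes. For KO minus WT under ANG II 9 of 39 were called (23.1%), against 25.6% of all genes, and 15.2% of all genes were called in the upward direction that all 9 took and 10.4% downward. The share called in either direction was thus near the background under ANG II, where the upward share was above it, and below the background in the other comparisons. Confidence intervals of 95% lay within a log2 change of ±0.5 for 32 of 39 genes in the WT response, 32 in the KO response, 34 at baseline and 27 under ANG II, and none reached beyond ±1 in the first 3 of these. These comparisons share arrays: WT ANG II enters the WT response and the difference under ANG II, and each baseline group enters 1 response and the baseline difference.

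Groups without overlap, with all 3 arrays of 1 group above all 3 of the other, were also counted against the whole array. In the WT response 3 of 39 genes were higher and 8 lower in this sense, against 19.8% and 21.3% of all genes. In the KO response 11 were higher and 2 lower, against 23% and 15.4%. Between the genotypes at baseline 4 were higher and 5 lower in KO, against 13.6% and 21.1%, and under ANG II 15 were higher and 2 lower, against 21% and 17.9%. The 15 genes above WT in the infused KO kidneys thus made up a larger share of the 39 genes than the same pattern did of all genes. A test of that excess was not made. In the lists of other cell cycle genes described below, 6 of 24 replication genes and 9 of 41 mitotic genes showed this pattern, against the same 21% of all genes.

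The WT count was 1 without WT baseline replicate 1, WT baseline replicate 2, WT ANG II replicate 2 or WT ANG II replicate 3, when Cenpe alone was called, and 3 without WT baseline replicate 3. Quantile normalization of the ratios also gave 1, and a fit to the WT arrays alone, 1 probe set per gene and the removal of _s_at and _x_at probe sets gave 2 each. In the KO response the count was 4 without WT ANG II replicate 1, where Nusap1 and Cdca3 were added, and 1 without KO baseline replicate 3 or KO ANG II replicate 3. The baseline difference gave 3 calls without KO baseline replicate 3 (Mcm4, Mki67 and Ube2c, all higher in KO), and 1 call, Mcm4, without WT baseline replicate 1, WT ANG II replicate 1 or WT ANG II replicate 3. The response difference had 1 call without WT baseline replicate 1 or KO ANG II replicate 3, and 4 without WT ANG II replicate 1, where Tk1 and Nusap1 were added. Leaving out KO ANG II replicate 3 gave 5 calls under ANG II, and leaving out any other array gave between 6 and 12.

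The MCM proteins form the ring-shaped helicase that unwinds DNA ahead of the replication fork. Mcm6, 1 of its 6 subunits, had ratios of 1.09, 0.996 and 0.985 in WT baseline arrays, of 0.919, 0.824 and 0.692 in WT ANG II arrays, of 1.09, 0.968 and 0.916 in KO baseline arrays and of 1.27, 1.07 and 1.26 in KO ANG II arrays. The infused WT kidneys lay below all WT baseline and KO ANG II arrays and overlapped with KO baseline, and the infused KO kidneys overlapped with both baseline groups. Mcm6 fell by 0.34 on the log2 scale in WT (SE 0.11, limma adjusted p = 0.0343), whereas its change in KO was 0.27 ± 0.11 and was not called (limma adjusted p = 0.11). The responses differed by 0.61 ± 0.15 (limma adjusted p = 0.0195), and under ANG II Mcm6 was 1.48-fold higher in KO than in WT (log2 difference 0.57 ± 0.11, limma adjusted p = 0.00273). The WT fall was no longer called without any 1 of WT baseline replicates 1, 2 and 3 and WT ANG II replicates 2 and 3 (limma adjusted p = 0.0525 to 0.136), and the difference of the responses without WT baseline replicate 1 or KO ANG II replicate 3 (0.0516 and 0.0528).

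Mcm4, another subunit of the ring, fell in both genotypes. Its ratios were 1.15, 1.07 and 0.965 in WT baseline arrays, 0.961, 0.862 and 0.754 in WT ANG II arrays, 1.43, 1.42 and 1.21 in KO baseline arrays and 1.01, 0.945 and 0.926 in KO ANG II arrays. The 3 KO baseline kidneys had the highest values of all 12 arrays, and within each genotype the infused kidneys lay below the baseline kidneys. The log2 change was -0.31 ± 0.10 in WT (limma adjusted p = 0.0379) and -0.49 ± 0.10 in KO (limma adjusted p = 0.00937), and these responses differed by -0.18 ± 0.14 (limma adjusted p = 0.456). Before the infusion Mcm4 was the nearest to a call between the genotypes, at 0.35 ± 0.10 (limma adjusted p = 0.0515). The WT call ended without WT baseline replicate 1 or 2 or WT ANG II replicate 2 or 3 (limma adjusted p = 0.0755 to 0.151), and both responses lost their call when the _x_at probe set was left out.

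The other 4 subunits were called in no comparison. In the WT response Mcm2, Mcm3 and Mcm5 had log2 changes of -0.18, -0.10 and -0.12, and Mcm7 had 0.10. Under ANG II, Mcm3 and Mcm5 were the nearest to a call between the genotypes, at 0.24 ± 0.08 (limma adjusted p = 0.0512) and 0.25 ± 0.09 (limma adjusted p = 0.0626). The WT ANG II arrays of Mcm5 read 0.920, 0.884 and 0.917 and its KO ANG II arrays 1.06, 1.07 and 1.10, with no overlap. Pcna, the sliding clamp of the polymerase, changed by -0.00 ± 0.07 in WT and by -0.16 ± 0.07 in KO, with neither called.

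Among the genes of nucleotide supply, Tk1 was the one that was called. It encodes the cytosolic thymidine kinase, which returns thymidine to the DNA precursor pool. Its ratios were 0.887, 0.900 and 1.15 in WT baseline, 1.09, 0.758 and 0.990 in WT ANG II, 0.954, 1.01 and 0.744 in KO baseline and 1.32, 1.22 and 1.63 in KO ANG II arrays. The 3 infused KO kidneys had the highest values of the 12 arrays, and the other 3 groups overlapped. Tk1 rose by 0.62 ± 0.16 in KO (1.54-fold, limma adjusted p = 0.0251) and was higher by 0.56 ± 0.16 in KO than in WT under ANG II (limma adjusted p = 0.0225). The WT change was -0.06 ± 0.16, and the difference of the responses, 0.68 ± 0.23, was not called (limma adjusted p = 0.0661). Both calls ended without KO ANG II replicate 3 (limma adjusted p from 0.0841), the first also without KO baseline replicate 3 and the second without WT ANG II replicate 2 (limma adjusted p up to 0.0993).

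Tyms, which makes thymidylate, had log2 changes of 0.16 ± 0.06 in WT (limma adjusted p = 0.0552) and 0.13 ± 0.06 in KO, and in both genotypes the infused arrays lay above the baseline arrays. Its ratios were 0.976, 0.980 and 0.932 in WT baseline and 1.06, 1.05 and 1.12 in WT ANG II arrays. Rrm1 and Rrm2 encode the subunits of ribonucleotide reductase. They changed by -0.07 ± 0.07 and -0.17 ± 0.13 in WT and by 0.09 ± 0.07 and 0.08 ± 0.13 in KO, and were not called in any comparison.

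Cyclin E, which activates CDK2 at the start of S phase, was the one point of a rise in WT. Ccne1 had ratios of 0.893, 0.979 and 1.05 in WT baseline, 1.08, 1.29 and 1.22 in WT ANG II, 0.956, 0.813 and 0.847 in KO baseline and 0.892, 1.07 and 1.05 in KO ANG II arrays. The infused WT kidneys had the 3 highest values, whereas the KO groups overlapped. The rise in WT was 0.30 ± 0.10 (limma adjusted p = 0.0404), with a change of 0.20 ± 0.10 in KO (limma adjusted p = 0.178) and a difference of the responses of -0.09 ± 0.14 (limma adjusted p = 0.717). This call ended without WT baseline replicate 1 or 2, WT ANG II replicate 2 or 3 or KO baseline replicate 3 (limma adjusted p = 0.0506 to 0.158). Ccne2, a second cyclin E gene, had the lower precision, with a difference of 0.55 ± 0.21 under ANG II (limma adjusted p = 0.0734) and KO ANG II ratios of 1.21, 0.895 and 1.60.

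E2f1, a transcription factor of S phase genes, changed by 0.10 ± 0.07 in WT and 0.15 ± 0.07 in KO and was not called. Uhrf1, which guides maintenance of DNA methylation behind the fork, read 0.917, 0.932 and 0.887 in WT ANG II and 1.03, 1.20 and 1.09 in KO ANG II arrays. These groups did not overlap, and Uhrf1 was higher in KO by 0.27 ± 0.09 (limma adjusted p = 0.0387). The call held without WT baseline replicate 1 or 3, KO baseline replicate 1 or 3 or KO ANG II replicate 1, and ended without any other array (limma adjusted p = 0.0503 to 0.118).

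**Figure D2:**
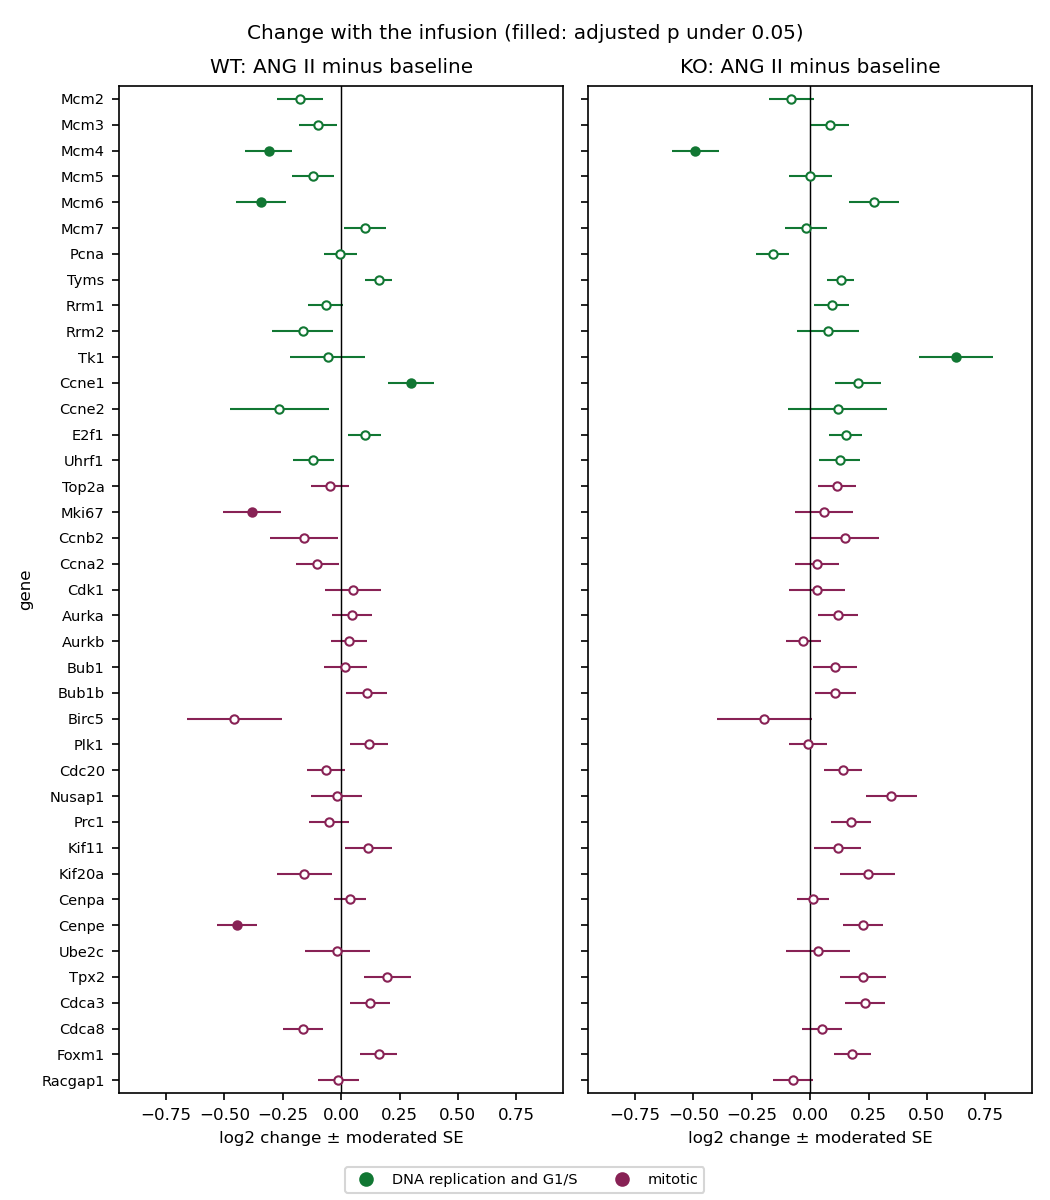
Log2 change with the infusion in WT (left) and KO (right) for the 39 genes, as points with moderated standard errors from 3 arrays per group; filled points passed a limma adjusted p under 0.05, green marks replication and purple mitotic genes. In WT the filled points are Mcm4, Mcm6, Ccne1, Mki67 and Cenpe, in KO Mcm4 and Tk1.

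Mki67, which encodes the Ki-67 protein that coats mitotic chromosomes and is used to stain dividing cells, differed most between the infused genotypes among the 39 genes. Its ratios were 1.03, 0.943 and 0.975 in WT baseline, 0.777, 0.769 and 0.714 in WT ANG II, 1.34, 1.39 and 0.972 in KO baseline and 1.46, 1.24 and 1.13 in KO ANG II arrays. The infused WT kidneys had the 3 lowest values of the 12 arrays, and 2 of the 3 KO baseline kidneys were as high as the infused KO kidneys. Mki67 was 1.69-fold higher in KO than in WT under ANG II (log2 difference 0.75 ± 0.13, limma adjusted p = 0.00116), a call that held in every alternative tried. It fell by 0.38 in WT (SE 0.13, limma adjusted p = 0.0403), with a change of 0.06 ± 0.13 in KO and a difference of the responses of 0.44 ± 0.18 that was not called (limma adjusted p = 0.129). The WT call ended without any 1 of the 6 WT arrays (limma adjusted p = 0.054 to 0.127). At baseline the genotypes differed by 0.31 ± 0.13 (limma adjusted p = 0.142).

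Cenpe encodes the centromere-bound kinesin that aligns chromosomes on the spindle. It had ratios of 1.31, 1.01 and 1.11 in WT baseline, 0.820, 0.833 and 0.852 in WT ANG II, 1.00, 0.927 and 0.971 in KO baseline and 1.07, 1.20 and 1.12 in KO ANG II arrays. The 3 infused WT kidneys were the lowest of the 12 arrays, and the KO groups were ordered the other way, with infused above baseline. Cenpe fell by 0.45 in WT (SE 0.09, limma adjusted p = 0.00335) and changed by 0.23 ± 0.09 in KO (limma adjusted p = 0.101). The responses differed by 0.67 ± 0.12 (limma adjusted p = 0.00376), and under ANG II KO exceeded WT by 0.44 ± 0.09 (limma adjusted p = 0.00361). These 3 calls held in every alternative that used 1 value per gene.

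The Cenpe result came from 1 of its 2 probe sets. Probe set 1435005_at read 1.13, 1.26 and 1.72 in WT baseline, 0.613, 0.696 and 0.747 in WT ANG II, 0.812, 0.849 and 0.875 in KO baseline and 1.15, 1.37 and 1.38 in KO ANG II arrays, from the lowest to the highest array. Its log2 changes were -0.98 in WT (limma adjusted p = 0.000345) and 0.62 in KO (limma adjusted p = 0.0124), a difference of 1.59. For 1439040_at the same changes were 0.09 in WT and -0.16 in KO, with neither called, and all 4 of its groups overlapped with at least 1 other group. The sources used here do not say which transcripts each probe set detects.

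Cyclin A2 partners CDK2 and CDK1 in S phase and at the entry into mitosis. Ccna2 had ratios of 0.779, 0.905 and 1.00 in WT ANG II and 1.10, 1.15 and 1.22 in KO ANG II arrays, with 0.944, 0.942 and 0.979 in WT baseline and 1.21, 1.17 and 1.02 in KO baseline arrays. KO lay above WT with no overlap in either condition. The difference was 0.38 ± 0.09 under ANG II (limma adjusted p = 0.0122), a call that ended without KO ANG II replicate 3 (limma adjusted p = 0.0505), and 0.24 ± 0.09 at baseline (limma adjusted p = 0.128). Its response to the infusion was -0.10 ± 0.09 in WT and 0.03 ± 0.09 in KO. The mitotic cyclin gene Ccnb2 and its kinase gene Cdk1 were not called, with differences under ANG II of 0.28 ± 0.15 and 0.16 ± 0.12.

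The chromosomal passenger complex corrects attachments of chromosomes to the spindle and steers cytokinesis. Cdca8, which encodes its subunit borealin, read 0.902, 0.808 and 0.865 in WT ANG II and 1.17, 1.05 and 1.14 in KO ANG II arrays, with no overlap. It was higher in KO by 0.38 ± 0.09 (limma adjusted p = 0.007). Of its 3 probe sets, 1436847_s_at differed by 0.78 (limma adjusted p = 0.00557) and the other 2 by 0.11 and 0.25, and the gene was not called without the _s_at probe sets. Survivin (Birc5) and Aurora B kinase (Aurkb) belong to the same complex and were not called. Birc5 was set apart by single arrays, with ratios of 1.40, 1.01 and 1.05 in WT baseline and 1.74, 0.932 and 1.05 in KO baseline arrays. Its change of -0.46 ± 0.20 in WT was not called (limma adjusted p = 0.112), although the infused WT arrays all lay below the WT baseline arrays.

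Top2a and Kif20a completed the genes called between the infused genotypes. Top2a encodes the topoisomerase that untangles sister chromatids and Kif20a a kinesin of cytokinesis. Top2a read 0.813, 0.949 and 1.01 in WT ANG II and 1.16, 1.10 and 1.02 in KO ANG II arrays, a difference of 0.25 ± 0.08 (limma adjusted p = 0.0408). Kif20a read 0.910, 0.810 and 1.02 and 1.32, 1.01 and 1.17 in the same groups, a difference of 0.35 ± 0.12 (limma adjusted p = 0.0452). The lowest KO value of Kif20a lay below the highest WT value, and the groups of Top2a did not overlap but stood close to each other. The probe sets of Top2a pointed in both directions, with 0.69 for 1454694_a_at (limma adjusted p = 0.0194), 0.19 for 1442454_at and -0.13 for 1427724_at. In leaving out each array in turn, the Top2a call held without WT baseline replicate 1, WT ANG II replicate 3 or KO ANG II replicate 3 and ended without any of the other 9 arrays (limma adjusted p = 0.0514 to 0.142). The Kif20a call ended without WT baseline replicate 1 or 3, WT ANG II replicate 1 or 2, KO baseline replicate 2 or KO ANG II replicate 1 or 3 (limma adjusted p = 0.0538 to 0.171).

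The remaining mitotic genes were not called in any of the comparisons. Foxm1, a transcription factor that activates mitotic genes, had lower values in KO at baseline (-0.23 ± 0.08, limma adjusted p = 0.0875) and under ANG II (-0.21 ± 0.08, limma adjusted p = 0.0619). Its ratios were 0.872, 0.878 and 0.878 in KO baseline and 0.955, 1.01 and 1.13 in WT baseline arrays, with no overlap. Nusap1, a protein that binds spindle microtubules, changed by 0.35 ± 0.11 in KO (limma adjusted p = 0.0514), from 0.839, 0.931 and 0.813 to 1.03, 1.05 and 1.21, with no overlap. The checkpoint kinases Bub1 and Bub1b and the kinases Aurka and Plk1 had log2 changes between -0.01 and 0.12 in either genotype. Cdc20 and Ube2c, which serve the ubiquitin ligase that ends mitosis, changed by -0.07 and -0.02 in WT and by 0.14 and 0.03 in KO. Kif11, Prc1, Tpx2 and Racgap1, proteins of the spindle and its midzone, lay between -0.05 and 0.20 in WT and between -0.07 and 0.22 in KO. Cenpa, the histone of centromeres, changed by 0.04 in WT and 0.01 in KO. Cdca3 had a difference of -0.10 ± 0.09 under ANG II as a gene, but its probe sets 1448001_x_at and 1452040_a_at were called in opposite directions (-0.42 and 0.33).

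**Figure D3:**
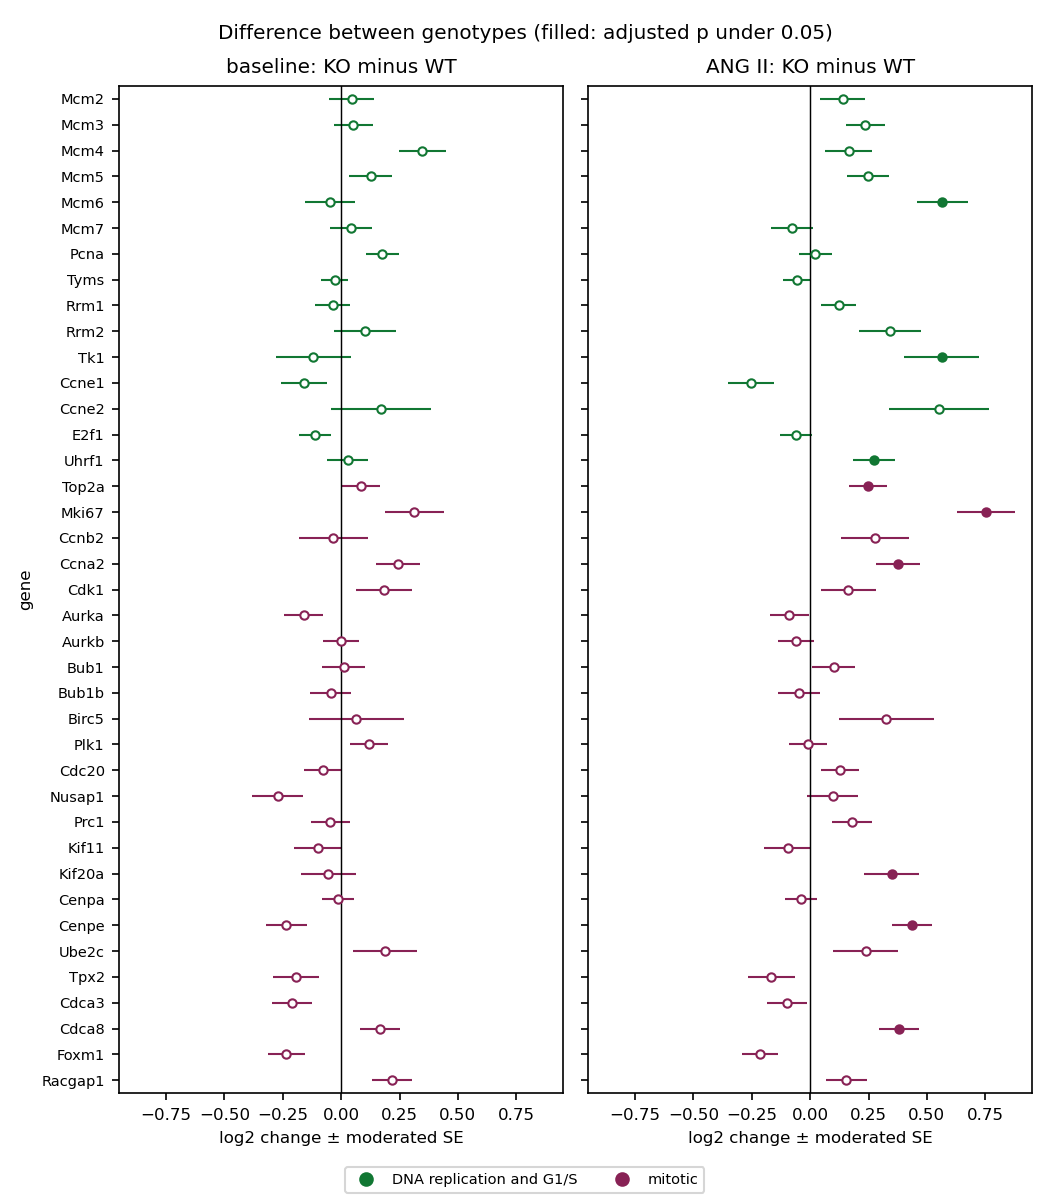
Log2 difference between genotypes, KO minus WT, at baseline (left) and under ANG II (right) for the 39 genes, as points with moderated standard errors from 3 arrays per group; filled points passed a limma adjusted p under 0.05, green marks replication and purple mitotic genes. No point is filled at baseline, and 9 are filled under ANG II, from Top2a at 0.25 to Mki67 at 0.75.

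**Figure D4:**
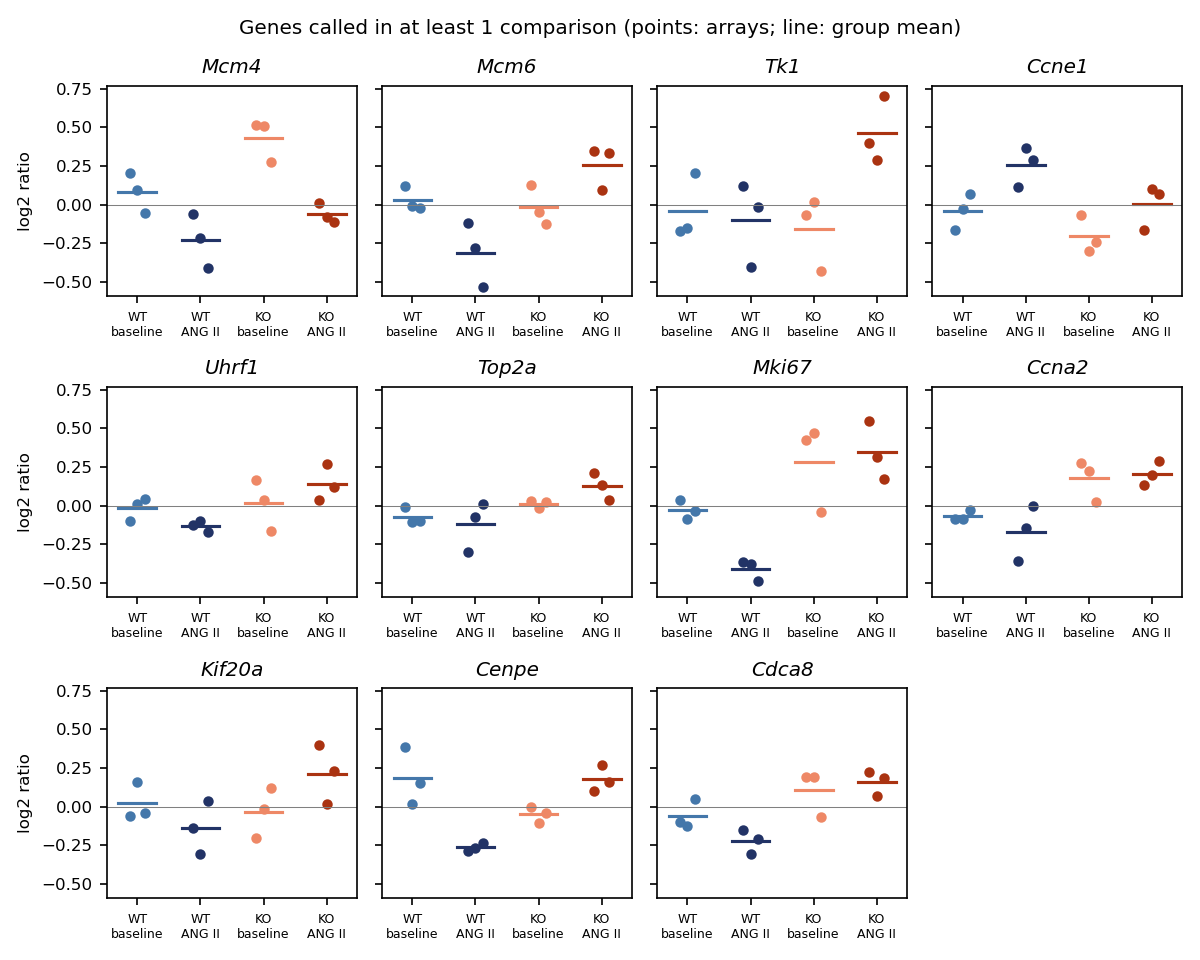
Log2 ratio in each array (points, ordered by replicate number) and group mean (lines) of the 11 genes called in at least 1 comparison, on a common vertical scale. The WT ANG II points of Mki67 and Cenpe lie below the points of the other groups, and the KO ANG II points of Tk1 lie above them.

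Replication genes were then set beside mitotic genes. In the WT response the median log2 change was -0.10 over the 15 replication genes and -0.01 over the 24 mitotic genes, against 0.03 over all genes. In the KO response these medians were 0.09, 0.11 and 0.05. For the difference of the responses they were 0.12, 0.10 and 0.01, at baseline 0.04, -0.02 and -0.04, and under ANG II 0.17, 0.14 and -0.02. Replication minus mitotic was thus -0.09, -0.02, 0.02, 0.07 and 0.02 in these 5 comparisons. Within single arrays, the difference between the 2 class means had an SD of 0.08 between replicates. That is the spread of another measure, since the medians compare groups of 3 arrays. No test of the classes against each other was made. In the WT response 11 of 15 replication genes and 13 of 24 mitotic genes had negative changes, and in the KO response 11 of 15 and 20 of 24 had positive ones. Of all 18193 genes, 8324 had negative changes in the WT response and 11129 positive ones in the KO response. By calls, 3 of 15 replication and 6 of 24 mitotic genes were higher in KO under ANG II (20% and 25%), where 15.2% of all genes were.

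Single arrays stood apart from their groups in the averages by array. In WT ANG II the mean log2 ratio of the replication genes was 0.01, -0.13 and -0.13 in replicates 1, 2 and 3, and that of the mitotic genes was -0.09, -0.05 and 0.02. In KO ANG II the replication genes averaged 0.10, 0.05 and 0.16 and the mitotic genes 0.11, 0.10 and 0.09. Both classes were above 0 in each infused KO kidney, and for the mitotic genes all 3 lay above every WT array. KO baseline arrays ranged widely, from -0.09 in replicate 3 to 0.12 in replicate 1 for the replication genes and from -0.08 to 0.07 for the mitotic genes. The macrophage mean was lowest among the KO baseline arrays in replicate 3 as well (0.73, against 1.28 and 1.13), and its part in these values was not tested. Without WT ANG II replicate 1 the difference between the class medians was -0.16 in the WT response and 0.13 under ANG II.

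**Figure D5:**
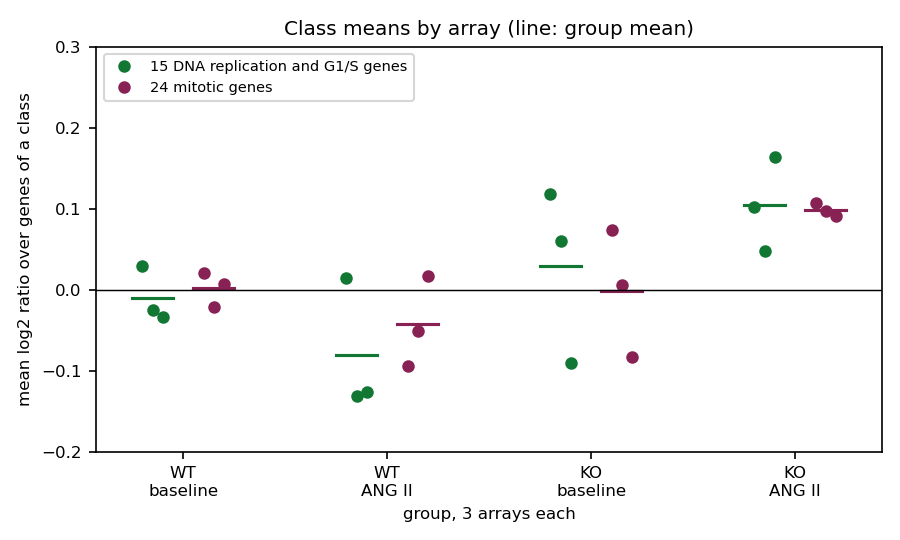
Mean log2 ratio over the 15 replication genes (green) and the 24 mitotic genes (purple) in each array, by group, with lines at the group means. The 3 KO ANG II arrays lie at 0.05 to 0.16 for replication genes and at 0.09 to 0.11 for mitotic genes, and the WT ANG II arrays at -0.13 to 0.01 and -0.09 to 0.02.

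Other genes of the same pathway were counted from lists, also chosen with earlier results known. Of 24 other replication genes, 0 rose and 3 fell in WT, 4 rose and 0 fell in KO, and under ANG II 3 were higher and 1 lower in KO. Over all genes, 15.6% fell in WT, 5.82% rose in KO and 15.2% were higher in KO under ANG II, against 12.5%, 16.7% and 12.5% of the 24. The shares that fell in WT and that were higher in KO under ANG II were thus near those of all genes. In either direction 12.5% of the 24 were called in WT, against 26.5% of all genes. Under ANG II 16.7% were called, against 25.6%. Genes named from this and the following lists are those of smallest p. Dut, which keeps uracil out of DNA, fell by 0.37 in WT (SE 0.07, limma adjusted p = 0.00401), with ratios of 1.00, 1.11 and 1.18 in WT baseline and 0.789, 0.837 and 0.921 in WT ANG II arrays. Cdc6, which loads the MCM ring at origins, was higher in KO than in WT under ANG II by 0.40 ± 0.08 (limma adjusted p = 0.00475), with ratios of 0.760, 0.774 and 0.844 in WT and 0.989, 1.01 and 1.15 in KO. Neither pair of groups overlapped.

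Among 41 other mitotic genes, 4 rose and 6 fell in WT, 3 rose and 0 fell in KO, and under ANG II 5 were higher and 2 lower in KO. Those that rose made up 9.76% in WT and 7.32% in KO, against 10.9% and 5.82% of all genes, and 12.2% were higher in KO under ANG II, against 15.2% of all genes. These shares were near those of all genes. The median difference of the 41 genes under ANG II was -0.02, with 20 positive and 21 negative values. Cks2, a small subunit of cyclin-dependent kinases, had ratios of 0.998, 1.09 and 1.17 in WT baseline, 0.605, 0.644 and 0.732 in WT ANG II, 0.934, 0.938 and 1.15 in KO baseline and 1.00, 1.15 and 1.16 in KO ANG II arrays. It fell by 0.72 in WT (SE 0.10, limma adjusted p = 0.000532), its responses differed by 0.86 ± 0.15 (limma adjusted p = 0.00243), and it was higher in KO by 0.74 ± 0.10 under ANG II (limma adjusted p = 0.000327). Ect2, which is needed for cytokinesis, read 0.508, 0.648 and 0.842 in WT ANG II and 1.08, 1.40 and 1.51 in KO ANG II arrays, a difference of 1.01 ± 0.16 (limma adjusted p = 0.000729). Cks1b, the paralog of Cks2, was higher in KO under ANG II by 0.51 ± 0.08, and Smc4, a condensin subunit, fell by 0.58 in WT (SE 0.10, limma adjusted p = 0.00207).

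Of 22 genes of G1 cyclins, cyclin-dependent kinases and E2F factors, 2 rose and 4 fell in WT, 1 rose and 1 fell in KO, 2 were higher in KO at baseline, and under ANG II 3 were higher and 2 lower in KO. The share called in either direction was 27.3% in WT and 22.7% under ANG II, near the 26.5% and 25.6% of all genes. Myc, a transcription factor of growth, had ratios of 0.604, 0.711 and 0.784 in WT baseline, 1.09, 1.14 and 1.15 in WT ANG II, 1.01, 1.14 and 1.33 in KO baseline and 0.784, 0.994 and 0.995 in KO ANG II arrays. The WT baseline kidneys were the low group, at or below every other array. Myc rose by 0.69 ± 0.12 in WT (limma adjusted p = 0.002), and its responses differed by -1.02 ± 0.17 (limma adjusted p = 0.00249). Ccnd2, a cyclin D gene, was higher in KO by 0.49 ± 0.08 under ANG II (limma adjusted p = 0.00113). Ccnh, the cyclin of the kinase that activates other cyclin-dependent kinases, fell by 0.46 in WT (SE 0.08, limma adjusted p = 0.00212).

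Inhibitors of the cycle changed in both directions in WT, with Cdkn1a as the one that rose. Of 19 measured inhibitors and pocket proteins, 1 rose and 4 fell in WT, 0 rose and 6 fell in KO, 4 were higher and 0 lower in KO at baseline, and under ANG II 4 were higher and 2 lower. In WT 26.3% were called in either direction, near the 26.5% of all genes. The share was 31.6% in KO against 12.8% of all genes, 21.1% at baseline against 8.07%, and 31.6% under ANG II against 25.6%. Cdkn1a, which encodes the kinase inhibitor p21, had ratios of 0.560, 0.578 and 0.597 in WT baseline, 1.07, 1.51 and 1.73 in WT ANG II, 1.04, 1.10 and 1.16 in KO baseline and 0.698, 0.851 and 1.03 in KO ANG II arrays. The WT baseline kidneys lay below all others. Cdkn1a rose by 1.29 ± 0.16 in WT (limma adjusted p = 0.00019) and was lower in KO than in WT under ANG II by -0.73 ± 0.16 (limma adjusted p = 0.00556), whereas at baseline it was higher in KO by 0.93 ± 0.16 (limma adjusted p = 0.00435).

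Cdkn1b and Cdkn1c fell in both genotypes. Cdkn1b, which encodes p27, had log2 changes of -0.47 ± 0.08 in WT (limma adjusted p = 0.00141) and -0.51 ± 0.08 in KO (limma adjusted p = 0.00256), and Cdkn1c, which encodes p57, of -0.56 ± 0.13 and -0.78 ± 0.13 (limma adjusted p = 0.00937 and 0.00391). Btg2, an antiproliferative gene of the early stress response, fell by 0.95 in KO (SE 0.12, limma adjusted p = 0.000967), from 1.58, 1.64 and 1.94 to 0.813, 0.831 and 1.03. At baseline it was higher in KO by 0.95 ± 0.12 (limma adjusted p = 0.00114). The checkpoint kinase gene Chek2 fell by 0.47 in WT (SE 0.07, limma adjusted p = 0.000536) and was higher in KO under ANG II by 0.52 ± 0.07 (limma adjusted p = 0.000222). The 3 KO baseline arrays, which carry the high values of Btg2 and Cdkn1c, also had the high macrophage, fibroblast and injury markers given above. The 9 podocyte and endothelium markers lay at 0.15 to 0.28 in these arrays and between -0.19 and 0.01 in the other arrays. The part of any of these cells in the values of Btg2 and Cdkn1c was not tested.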

How the data were processed

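Total RNA of snap-frozen kidneys was hybridised to Affymetrix Mouse Genome 430 2.0 arrays, 1 per mouse. The submitters' processing notes name RMA. The deposited values are linear ratios to each probe set's median over the 12 arrays, a division read from the values, since 45099 of 45101 probe sets had a median within 0.002 of 1, and array medians ran from 0.986 to 1.014. No 2 arrays held identical values. Ratios keep no signal over background, and 3 arrays per group limit the precision.

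Ratios were put on the log2 scale, 64 control probe sets were left out, and the 34945 probe sets with 1 gene symbol were averaged per gene. With limma 3.58.1 (R 4.3.3), a model of 4 group means was fitted over the 12 arrays together, without a variance trend (8 residual and 4.73 prior degrees of freedom). Tests were two-sided, and a gene was called when its p, adjusted by Benjamini-Hochberg within each of 5 comparisons, was under 0.05. The procedure was tested on simulated data.

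The members, the split into 15 replication and 25 mitotic genes, 4 further pathway lists and 8 lists of cell type markers were chosen with earlier results of these data known. Members could all be named. From the pathway lists the rule took up to 4 called genes with the smallest p in each comparison, and the text names part of these.

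Alternatives were a variance trend, a fit to the groups compared alone, quantile normalization again, arrays centred on their median, 1 probe set per gene, the median of the probe sets, omission of _s_at and _x_at probe sets, addition of probe sets with several symbols, omission of genes of low spread, array weights, the replicate number as a block, and each array left out in turn. Testing each probe set on its own was added after seeing the data. Promoter windows were from RefSeq. Replicate numbers were taken as names and not as pairs.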

Additional observations from a re-analysis of the deposited data

Results flagged for a closer look

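The response to ANG II differed between WT and KO kidneys by a test of the difference itself for 2 of the 39 genes. For Mcm6 the difference of the log2 changes was 0.61 ± 0.15 (limma with Benjamini-Hochberg adjustment, adjusted p = 0.0195), from -0.34 in WT and 0.27 in KO. The 3 infused WT arrays lay below the 3 WT baseline arrays, whereas the KO groups overlapped. For Cenpe it was 0.67 ± 0.12 (limma adjusted p = 0.00376), from -0.45 in WT and 0.23 in KO, and every infused array lay below the WT baseline arrays in WT and above the KO baseline arrays in KO. Probe sets of a gene were unequal, with response differences of 0.55, 1.20 and 0.10 for the 3 probe sets of Mcm6 and of 1.59 and -0.25 for the 2 of Cenpe.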

How the results depend on the processing

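The genotype differences of Mcm6, Mki67 and Cenpe under ANG II and the WT fall and response difference of Cenpe were called in every alternative with 1 value per gene, and the other 13 calls among the 39 genes ended in at least 1. The 5 calls of the WT response became 2 with only the groups compared, 1 with quantile normalization, 2 with 1 probe set per gene, 2 without _s_at and _x_at probe sets and 8 with each probe set on its own, and lay between 1 and 6 with an array left out. The 2 calls of the KO response became 1 without _s_at and _x_at probe sets, 4 with array weights and 5 with each probe set on its own, and 1 to 4 with an array left out. The 2 calls of the response difference became 1 to 4 with an array left out. The baseline difference, with 0 calls, had 1 with centred arrays (Mcm4), 2 with 1 probe set per gene (Cenpe, Racgap1), 1 without _s_at and _x_at probe sets (Mcm4), 1 without genes of low spread (Mcm4), 3 with array weights (Mcm4, Ccna2, Foxm1), 2 with each probe set on its own, and 0 to 3 with an array left out. The 9 calls under ANG II became 14 with each probe set on its own and 5 to 12 with an array left out. The replicate number as a block gave 6, 2, 2, 1 and 9 calls in the 5 comparisons, against 5, 2, 2, 0 and 9. With the block, 8 genes were higher and 1 lower in KO under ANG II. Top2a and Kif20a lost their call there, and Birc5 (higher) and Foxm1 (lower) gained one. Deviations from group means of same-numbered arrays correlated at -0.146 to 0.287 over 18 pairs, of which 7 exceeded 0.1. Arrays of different numbers were not compared, so these values cannot tell whether the numbers pair the arrays. Replication minus mitotic medians moved in the WT response from -0.09 to 0.0014 with 1 probe set per gene and to between -0.16 and -0.044 with an array left out. Without genes of low spread, which kept 19 of the 39 genes, they moved from 0.02 to 0.10 for the response difference and from 0.02 to 0.17 under ANG II. With an array left out they lay between -0.030 and 0.12, and between -0.0097 and 0.13, in these comparisons. They lay between -0.07 and 0.01 in the KO response and between 0.02 and 0.09 at baseline. Among the called genes, 2 turned their direction under ANG II with 1 probe set per gene, Top2a to -0.13 and Ccnd3 to 0.31. The cause of these moves was not tested, except that leaving out arrays or probe sets uses fewer of them. Signal over background cannot be judged from ratios, and 3 arrays per group limit what could be called.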
